A study of Mus musculus with 11 samples.

Results

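The genes described here are 10 chaperones, folding enzymes and regulators of the endoplasmic reticulum (ER): Hspa5, Hsp90b1, Xbp1, Dnajb9, Sdf2l1, Manf, Creld2, Pdia4, Pdia6 and Herpud1. They were taken by name, as genes that the unfolded protein response is known to induce through its ATF6 and XBP1 branches. The choice was made with earlier results of these data known. All 10 were found among the 55421 mouse genes counted. RNA was sequenced from 11 hearts of female wild-type C57BL/6J mice aged 8 weeks. In 8 mice a coronary artery had been ligated to cause myocardial infarction (MI), and the infarct with its border zone was taken 3 days later. Of these, 4 received GI254023X, a small-molecule inhibitor of the shedding protease ADAM10, at 100 mg/kg by osmotic minipump (MI A10i, mice A116, A117, A119 and A120), and 4 received the solvent DMSO (MI DMSO, mice A105, A127, A128 and A129). Healthy heart tissue of 3 sham-operated mice that also received DMSO served as reference (sham, mice S1, S2 and S3). Inhibitor was given to whole animals and no library was made from sorted cells, so each value is a mean over all cells of the piece of tissue.

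The ER folds secreted and membrane proteins, and the unfolded protein response is the transcriptional programme that cells start when unfolded proteins collect there. Its sensors are ATF6, IRE1 and PERK. ATF6 is cut in the Golgi to release a transcription factor, IRE1 splices the Xbp1 mRNA so that it encodes the active factor XBP1, and PERK slows translation and raises ATF4. Hspa5 encodes BiP, the HSP70 of the ER lumen that also holds the sensors inactive, and in the heart this response has been studied mainly in ischaemia and overload of cardiomyocytes.

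ATF6 and XBP1 act on promoters through the ER stress response element, ERSE, which is written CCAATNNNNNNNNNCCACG, and through a shorter form, ERSE-II, written ATTGGNCCACG. Both elements were searched on both strands in the 250 bases before the RefSeq start of each gene (build GRCm38.p6), for 9 of the 10 genes (all but Manf) and for 32851 promoters in all. ERSE was found in 4 of the 9 promoters, against 0.113% of all promoters, and ERSE-II in 1 of 9, against 0.0304%. Because the genes were taken as known targets of ATF6 and XBP1, this excess follows from their choice and is no result of these hearts. Among the lists described below, ERSE was in 3 of 35 promoters of other ER chaperones and folding enzymes (8.57%). It was also in 2 of 19 promoters of ER-associated degradation (10.5%). The matches are printed here 5′ to 3′ along the gene with 5 bases on either side, because they are the known elements of this response found in 5 of the 9 promoters, and the capitals mark the CCAAT and CCACG blocks or their complements.
Hspa5, chr2:34772020-34772048, plus strand: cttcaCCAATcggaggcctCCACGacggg
Hsp90b1, chr10:86705633-86705661, minus strand: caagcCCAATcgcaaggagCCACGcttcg
Hsp90b1, chr10:86705528-86705556, minus strand: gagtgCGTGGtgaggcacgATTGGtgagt
Pdia6, chr12:17266486-17266514, plus strand: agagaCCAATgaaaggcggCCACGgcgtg
Creld2, chr15:88819515-88819543, plus strand: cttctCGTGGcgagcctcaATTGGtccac
Herpud1, chr8:94386372-94386392, plus strand: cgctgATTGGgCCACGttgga
The element of Hspa5 lay 65 to 47 bases before the start, that of Pdia6 98 to 80 and that of Creld2 126 to 108, where it ran on the opposite strand. Hsp90b1 held 1 element on each strand, at 212 to 194 and at 107 to 89 bases. The ERSE-II of Herpud1 lay 52 to 42 bases before its start. Another element, the unfolded protein response element TGACGTGG, was in none of the 9 promoters and in 0.563% of all. Its core ACGTG was in 4 of 9 (44.4%), namely Hspa5, Herpud1, Pdia6 and Dnajb9, and in 16.6% of all promoters; in Herpud1 it overlapped the ERSE-II. Neither ERSE form was found in the window of Sdf2l1, Pdia4, Xbp1 or Dnajb9, and these letters were not searched elsewhere.

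Libraries held 21702623 to 29511768 counted reads. The genes were all counted deeply enough to test, from 147 reads (Sdf2l1 in a sham heart) to 24668 reads (Hspa5 in A105). Values are CPM, the reads of a gene relative to all reads of its library, after TMM scaling, which balances the bulk of the genes between libraries. Annotated exons of 5 of the genes share bases with another gene, at most 415 of 4032 bases (in Hsp90b1), and the strand setting of the counting is not stated, so a small part of those reads cannot be assigned. Cardiomyocyte markers summed to 112400 to 113300 CPM in sham and were lower in every infarcted heart, at 50770 to 75290 CPM in MI DMSO and 64240 to 88280 CPM in MI A10i. The summed macrophage and the summed neutrophil markers were higher in every infarcted than in every sham heart, though single markers overlapped. In such tissue, fewer cells of a type and less RNA per cell cannot be told apart.

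Scaled by length, the level of the 10 genes in sham hearts ran from 147 RPKM (CPM per kilobase of exon) for Herpud1 to 5.66 RPKM for Sdf2l1. The length is that of all annotated exons of a gene, not of the transcripts present in the heart. The order between genes depends on this length, and a gene with rarely used exons, such as may hold for Manf (3524 bases), would appear too low. Herpud1, a membrane protein of the ER degradation complex, and Hspa5, at 139.9 ± 13.7 RPKM (SD, n = 3), did not separate in sham. Hsp90b1, the HSP90 of the ER lumen, followed at 92.8 RPKM, and it was clear of both neighbours in the order. Pdia6, Dnajb9, Xbp1 and Pdia4 lay between 13.5 and 23.7 RPKM. Manf and Creld2, at 8.09 and 7.96 RPKM, did not separate from each other, and Sdf2l1 was below both in all 3 hearts. In MI DMSO hearts the first place went to Hspa5 at 169.9 ± 55.0 RPKM (n = 4), and Herpud1, at 91.4 ± 15.9 RPKM, came after Hsp90b1.

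The comparison of MI DMSO with sham asks what the infarct itself does to these genes. Of the 10, 6 rose (Sdf2l1, Manf, Creld2, Pdia4, Xbp1 and Pdia6), Herpud1 fell, and Hspa5, Hsp90b1 and Dnajb9 did not pass the threshold of 0.01 for the adjusted p (edgeR quasi-likelihood test, Benjamini-Hochberg over 17117 genes). Across all genes tested, 12.9% were called higher and 9.6% lower, 2215 and 1643 genes, a split that became 3330 and 708 genes when libraries were scaled by size alone, with the 6 rises still called. The median log2 fold change was 0.85 for the 10 genes and 0.0021 for all genes. In 6 of the 10 every MI DMSO heart was above every sham heart, which held for 25.6% of all genes, and in Herpud1 every heart was below, as in 22.8% of all genes.

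**Figure D1:**
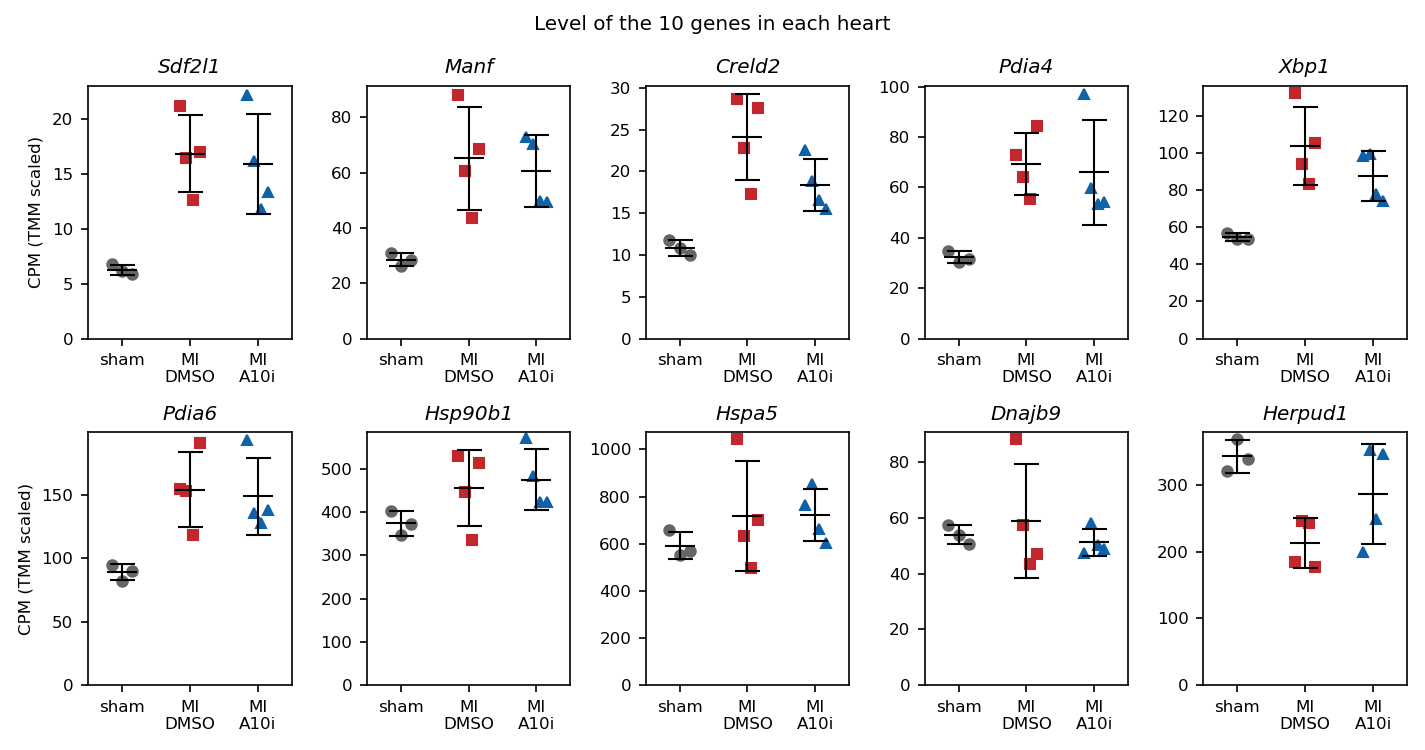
Level of each gene in each heart, as CPM after TMM scaling on linear axes that start at 0; circles are sham, squares MI DMSO and triangles MI A10i hearts, and the bars give the mean and SD. In the first 6 panels all 8 infarcted hearts lie above the 3 sham hearts, while Hsp90b1, Hspa5, Dnajb9 and Herpud1 overlap with sham in at least 1 infarcted group.

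Sdf2l1, a subunit of the complexes of BiP with its J-domain partners, changed most. It measured 6.79, 6.12 and 5.91 CPM in S1, S2 and S3, and 21.2, 16.5, 12.7 and 17.0 CPM in A105, A127, A128 and A129. All 4 infarcted hearts were above all 3 sham hearts, with A105 highest and A128 lowest. The log2 fold change was 1.41 ± 0.17 (SE), a fold of 2.66 (adjusted p = 0.000361, edgeR).

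Manf, a small ER protein that is secreted when ER calcium falls, measured 30.9, 26.2 and 28.5 CPM in the sham hearts and 88.2, 60.5, 43.5 and 68.7 CPM in A105, A127, A128 and A129. Creld2, an ER protein with thiol-dependent binding partners, measured 11.8, 10.8 and 9.93 CPM in sham and 28.6, 22.8, 17.3 and 27.6 CPM in the same MI DMSO hearts. For both genes A105 was the highest and A128 the lowest of the infarcted hearts, and neither gene overlapped with sham. Manf rose 2.27-fold (log2 1.18 ± 0.21, adjusted p = 0.00278, edgeR) and Creld2 by a like amount (log2 1.14 ± 0.17, adjusted p = 0.0011). The call of Manf rested on every sham heart, with an adjusted p of 0.0123 without S1, 0.017 without S2 and 0.0159 without S3, and of 0.0115 without A129, at log2 fold changes of 1.24, 1.12, 1.18 and 1.15.

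Pdia4 and Pdia6 are protein disulphide isomerases, which form and rearrange the disulphide bonds of secreted proteins. Pdia4 measured 34.9, 30.5 and 31.6 CPM in sham and 72.9, 64.3, 55.4 and 84.6 CPM in A105, A127, A128 and A129, a 2.13-fold rise (log2 1.09 ± 0.14, adjusted p = 0.000524, edgeR). Pdia6 measured 94.6, 82.1 and 89.5 CPM in sham and 154, 152, 118 and 191 CPM in MI DMSO, a 1.73-fold rise (log2 0.79 ± 0.15, adjusted p = 0.00307, edgeR). Unlike in Manf, the highest heart for both was A129, not A105. The call of Pdia6 was lost without S1, S2 or S3 (adjusted p = 0.0136, 0.0203 and 0.017), at log2 fold changes of 0.83, 0.73 and 0.79.

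Xbp1, the transcription factor of the IRE1 branch, measured 57.05, 53.6 and 53.4 CPM in sham and 132, 94.3, 83.1 and 105.1 CPM in A105, A127, A128 and A129. It rose 1.88-fold (log2 0.91 ± 0.14, adjusted p = 0.00131, edgeR). Gene counts take the spliced and unspliced forms of its mRNA together, so the values carry no measure of splicing. The sham hearts were closest for this gene, with a coefficient of variation of 3.78% against 20.3% in MI DMSO.

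The abundant chaperones did not pass the threshold. Hspa5 measured 658, 550.4 and 567 CPM in sham and 1044, 633, 497 and 699.6 CPM in A105, A127, A128 and A129. A105 was the highest of all 11 hearts and A128 the lowest of all, so the infarcted group enclosed the sham group. The log2 fold change of Hspa5 was 0.27 (95% interval -0.23 to 0.77, adjusted p = 0.355, edgeR), and it was 0.022 without A105 and 0.42 without A128. Hsp90b1 lay at 346 to 403 CPM in sham and 336 to 528 CPM in MI DMSO (log2 0.28, interval -0.07 to 0.62, adjusted p = 0.181). For neither gene does the interval reach a log2 fold change of 1. Dnajb9, a J-domain partner of BiP, measured 57.4, 53.8 and 50.8 CPM in sham and 88.2, 57.5, 43.3 and 46.9 CPM in MI DMSO. A105 was well above the sham hearts, A127 was level with the highest of them and the other two were below all 3, and the log2 fold change of 0.12 (interval -0.38 to 0.61, adjusted p = 0.7) became -0.16 without that heart. The ERSE matches did not sort the genes by call, since of the 4 promoters with ERSE those of Pdia6 and Creld2 belonged to genes that rose and those of Hspa5 and Hsp90b1 to genes that were not called.

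Herpud1 moved the other way. It measured 321, 369.6 and 339 CPM in S1, S2 and S3 and 184, 247, 243 and 178 CPM in A105, A127, A128 and A129, with no overlap. Its log2 fold change was -0.70 ± 0.13, a fold of 0.616 (adjusted p = 0.00323, edgeR). This call was close to the threshold: it was lost when S1 (adjusted p = 0.0122), S2 (0.0207) or S3 (0.0162) was left out, when all 11 libraries were fitted together (0.0116) and when libraries were scaled by size alone (-0.49, adjusted p = 0.0172), a scaling that moved the median of all genes by 0.208. Among the 4 MI DMSO hearts Herpud1 did not follow the other genes: A105, where 7 of the 10 were highest, was low in Herpud1, and A128, where 9 of the 10 were lowest, was not.

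The comparison of MI A10i with sham used the same 3 sham hearts. The genes that passed the threshold, all higher, were Sdf2l1, Manf, Pdia4, Creld2, Pdia6 and Xbp1, 6 of the 10, where 13.7% of 16971 genes tested were called higher and 9.11% lower (2333 and 1546 genes, or 3436 and 577 with scaling by library size alone). Their log2 fold changes were 1.35 ± 0.21, 1.09 ± 0.16, 1.04 ± 0.21, 0.76 ± 0.13, 0.75 ± 0.14 and 0.68 ± 0.11 (SE), in that order, with adjusted p between 0.00117 and 0.00551 (edgeR). The median over the 10 was 0.72, against -0.0054 for all genes. In these 6 genes and in Hsp90b1 every MI A10i heart was above every sham heart, as in 24.8% of all genes. None of the 10 had every heart below sham, which held for 23.4%. The count of 6 fell to 3 without S2 or without S3, when Creld2 (adjusted p = 0.0111 and 0.0128), Pdia4 (0.0205 and 0.0199) and Pdia6 (0.0187 and 0.0161) lost their calls; without S1, Pdia4 and Pdia6 lost theirs (0.0181 and 0.0132).

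Sdf2l1 measured 22.2, 16.2, 11.8 and 13.4 CPM in A116, A117, A119 and A120, and Manf 73.0, 70.5, 49.6 and 49.4 CPM. Pdia4 measured 97.0, 59.6, 53.4 and 54.1 CPM in the same hearts, and Pdia6 193, 136, 127.8 and 138 CPM. A116 was the highest for 6 of the 10 genes, and A119 and A120 were each the lowest for 4. Xbp1 measured 98.3, 99.7, 77.8 and 74.4 CPM, and Creld2 22.6, 18.9, 16.6 and 15.5 CPM. All of these exceeded the highest sham heart.

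The remaining 4 genes did not pass. Hspa5 measured 763, 852, 664 and 603 CPM in A116, A117, A119 and A120 (log2 0.29, adjusted p = 0.0996, edgeR), and Hsp90b1 572, 484, 422 and 422 CPM (log2 0.35, adjusted p = 0.0409). Hspa5 in A120 was below the highest sham heart, whereas Hsp90b1 was above sham in all 4 hearts. Dnajb9 lay at 47.5 to 58.3 CPM (log2 -0.07, adjusted p = 0.506). Herpud1 measured 199.7, 352, 249.7 and 347 CPM (log2 -0.25, interval -0.68 to 0.17, adjusted p = 0.312, and log2 -0.11 without A116), so that A117 and A120 were within the sham range and A116 and A119 below it.

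The direct comparison of MI A10i with MI DMSO asks whether ADAM10 inhibition changed these genes in the infarct. No gene of the 10, and 0% of the 16792 genes tested, was called higher or lower (edgeR, adjusted p under 0.01). DESeq2 and limma-voom called none of the 10 either, with adjusted p from 0.299 and from 0.371 upwards, although DESeq2 called 104 of all genes higher and 123 lower. At an unadjusted p under 0.05, Herpud1 was higher (7.1% of all genes were) and Creld2 lower (6.73% were). None of the 10 separated the groups, where 3.78% of all genes had every MI A10i heart above and 4.4% every heart below MI DMSO. Herpud1 differed by log2 0.44 (95% interval 0.0022 to 0.88, adjusted p = 0.36) and Creld2 by -0.38 (-0.76 to -0.0012, adjusted p = 0.36). Xbp1 differed by -0.23 (-0.58 to 0.11; -0.097 without A105), and the 7 other genes by -0.19 to 0.067. The intervals of these 7 reached at most -0.65 and 0.49, and changes within them are not excluded by these hearts.

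**Figure D2:**
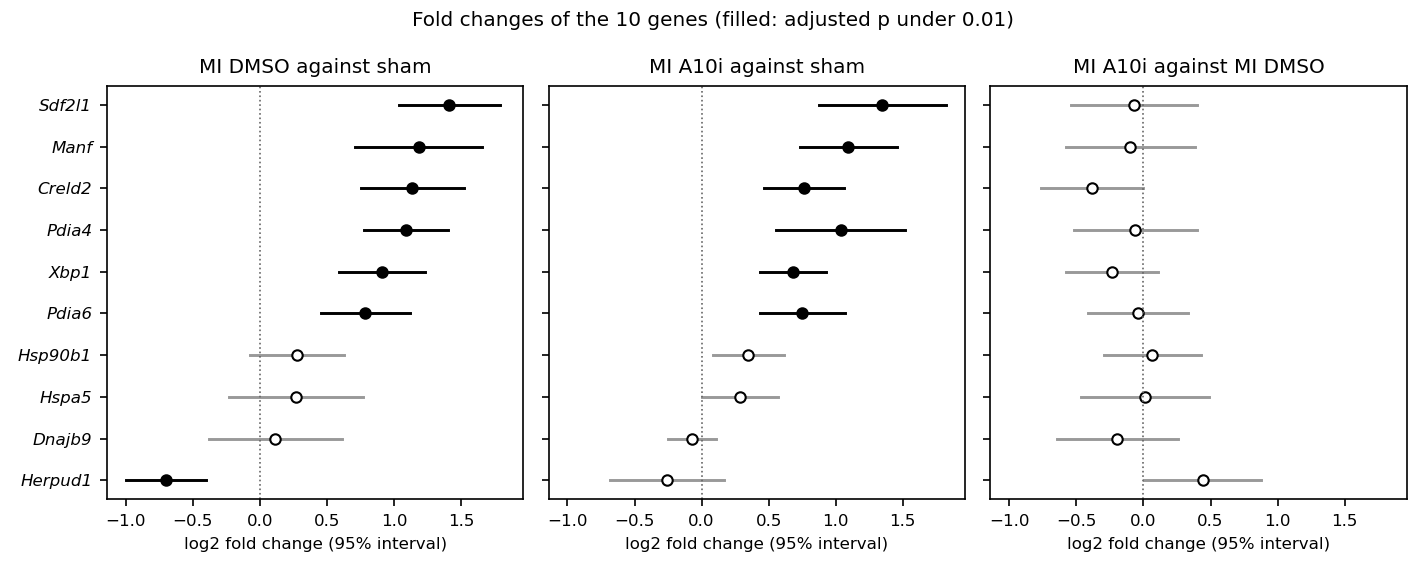
Log2 fold change of each gene with its 95% interval in the 3 comparisons; filled points passed an adjusted p of 0.01 (edgeR), open points did not. The 6 upper genes lie right of 0 against sham in both infarcted groups, Herpud1 lies left of 0 with a filled point in MI DMSO only (-0.70), and every point of MI A10i against MI DMSO is open.

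Because Hspa5 is the usual index of ER stress and varied widely between infarcted hearts, each gene was also expressed as a log2 ratio to Hspa5 in the same heart, which needs no scaling between libraries. This ratio was chosen after the values were seen and is given without a test. Relative to Hspa5, Sdf2l1 was higher by 1.17 in MI DMSO and 1.03 in MI A10i, Manf by 0.92 and 0.79, and Pdia4 by 0.85 and 0.71. Creld2 was higher by 0.89 and 0.47 and Xbp1 by 0.67 and 0.39. In each of these 5 genes all 8 infarcted hearts had a higher ratio than all 3 sham hearts, and in Pdia6 7 of 8 did. How many of all genes separate in this ratio was not computed. In CPM, every MI DMSO heart was above every sham heart in 25.6% of all genes, and every MI A10i heart in 24.8%. The ratio of Hsp90b1 moved by 0.035 and 0.060, within the spread of either infarcted group. Dnajb9 was below all sham hearts in this ratio in 7 of 8 infarcted hearts and Herpud1 in 6 of 8. The ratio of Manf was the least variable over the 8 infarcted hearts (SD 0.136), that of Herpud1 the most (SD 0.560). Thus A128, in which Hspa5 was below every sham heart, still had Sdf2l1, Manf, Creld2, Pdia4, Pdia6 and Xbp1 above every sham heart in CPM.

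**Figure D3:**
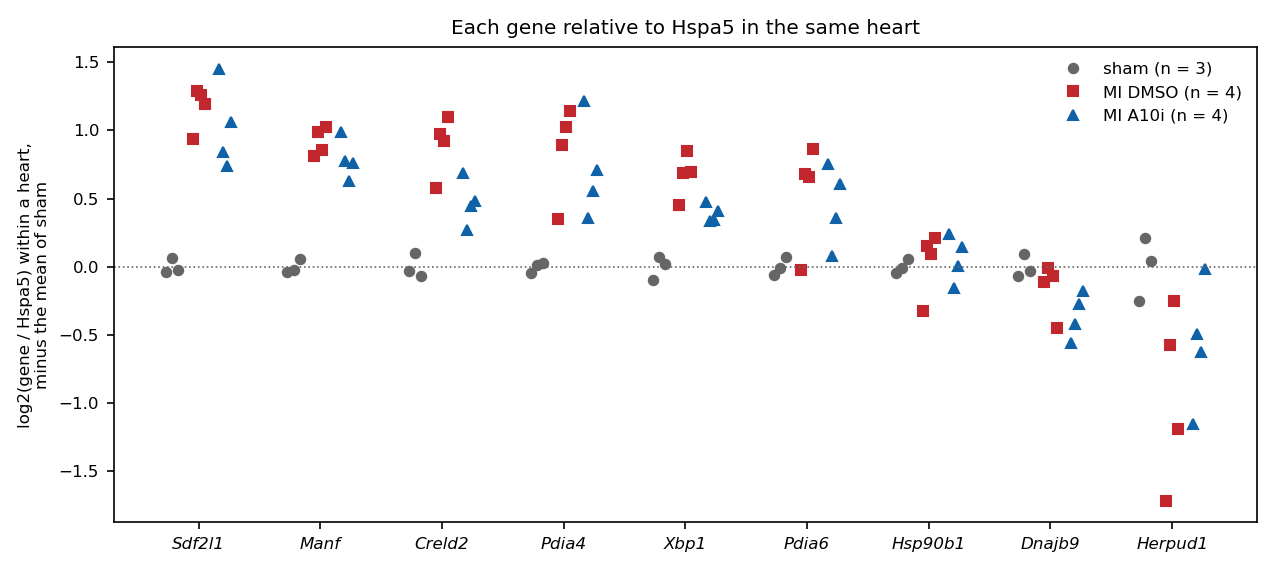
Log2 ratio of each gene to Hspa5 within a heart, minus the mean of the 3 sham hearts; circles are sham, squares MI DMSO and triangles MI A10i hearts. All infarcted hearts lie above the sham hearts for Sdf2l1, Manf, Creld2, Pdia4 and Xbp1, Hsp90b1 straddles 0, and Herpud1 spreads over more than 1 log2 unit in each infarcted group.

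The mean of the 10 genes on the log2 scale, relative to sham, was 0.92 in A105, 0.61 in A127, 0.29 in A128 and 0.70 in A129, and 0.78 in A116, 0.69 in A117, 0.39 in A119 and 0.43 in A120. Each infarcted heart was thus above the sham mean and the 2 groups overlapped. Xbp1 and Pdia6 lay closest to this mean course (root mean square difference 0.18 and 0.20 over the 11 hearts), and Herpud1 farthest (1.02). Outside the list, the 5 nearest of 17470 genes were Gmppb (0.083), Rpn1 (0.105), Gm10260 (0.112), Katnbl1 (0.112) and Fkbp2 (0.114). Gmppb makes the mannose donor of glycosylation, Rpn1 is a subunit of the oligosaccharyltransferase of the ER, and Fkbp2 is a prolyl isomerase of the ER. For Gm10260 and Katnbl1, which lay about as near as Fkbp2, no ER function is given here.

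Other genes of the same pathway were described from lists, which were chosen with earlier results of these data known. The list counts here and below stand beside 12.9% of all genes called higher and 9.6% lower in MI DMSO against sham. In MI A10i against sham these shares were 13.7% and 9.11%. No list was tested as a set. Among 12 sensors and transcription factors, 3 rose in MI DMSO against sham and none fell: Creb3l1 (log2 2.02, adjusted p = 0.00139, edgeR), Creb3 (0.72) and Creb3l2 (0.49), which are membrane-bound factors related to ATF6. Atf6 itself (0.10), Ern1 (0.11), which encodes IRE1, and Eif2ak3 (0.14), which encodes PERK, were not called. Of 32 other ER chaperones and folding enzymes, 11 rose and 2 fell, with a median log2 fold change of 0.44. The prolyl isomerase Fkbp10 went from 21.6 ± 0.33 CPM in sham (n = 3) to 61.7 ± 11.1 CPM (n = 4), and Txndc5, a disulphide isomerase, rose by log2 1.06. Those that fell were Cdnf, the paralogue of Manf (-1.28), and Uggt2, a glucosyltransferase that senses misfolding (-0.45).

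The paralogues of 4 of the genes were looked up after the values were seen. Cdnf fell from 35.4 ± 1.4 CPM in sham to 14.6 ± 2.7 CPM in MI DMSO (adjusted p = 0.000168, edgeR) and 17.6 ± 2.4 CPM in MI A10i (adjusted p = 0.0002), while Manf rose in both. Creld1, the paralogue of Creld2, did not pass (log2 -0.08 and 0.04), nor did Sdf2, the paralogue of Sdf2l1 (0.24 and 0.21), or Herpud2, the paralogue of Herpud1 (0.21 and -0.01), in MI DMSO and MI A10i in that order.

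Of 30 genes for translocation into the ER, signal peptidase and N-glycosylation, 15 rose and none fell, with a median of 0.40 (Sec61b 1.47, Spcs3 1.30, Stt3a 0.95). Of 22 genes of vesicle traffic between ER and Golgi, 6 rose and none fell, with a median of 0.22 (Arfgap3 1.18, Kdelr2 1.04, Surf4 0.52). Of 23 tested genes of ER-associated degradation, the class to which Herpud1 belongs, 4 rose and 1 fell, with a median of 0.21: Edem1 (1.21), Edem2 (0.54), Os9 (0.46) and Ubxn4 (0.37) were higher and Erlec1 (-0.33) was lower. In MI A10i against sham the counts were 14 higher and 0 lower for translocation, 5 and 0 for traffic, 5 and 0 for degradation and 13 and 2 for folding enzymes.

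In the PERK and ATF4 branch 7 of 14 genes rose and 1 fell in MI DMSO against sham, led by the amino acid genes Slc7a11 and Psat1. Fold changes of 9 genes were above 0 and those of 5 below. Slc7a11, a cystine transporter, was nearly absent from sham hearts (at most 0.12 CPM) and measured 2.82 to 5.51 CPM in MI DMSO, and Psat1 rose by log2 2.40. In MI A10i against sham, 2 of 13 rose and 3 fell: Ddit3 (-0.60), which encodes the factor CHOP, Atf4 (-0.39) and Atf5 (-0.60). Ddit3 and Atf5 averaged 18.0 and 77.8 CPM in sham and 12.7 and 49.3 CPM in MI DMSO, where only 1 gene of the list was called lower. Atf4 averaged 110.5 CPM in sham and 105.4 CPM in MI DMSO. Of all genes on the pathway lists, Ppp1r15a, the phosphatase subunit that ends the PERK signal, had the smallest p between the 2 infarcted groups, with 51.0 ± 8.3 CPM in MI DMSO and 30.0 ± 4.4 CPM in MI A10i (log2 -0.75, adjusted p = 0.0731, edgeR). In the cytosol and mitochondria, 4 of 14 HSP70 and HSP90 genes rose (Hspa1b 2.77, Hspa1a 2.26, Dnajb1 0.87, Hsp90aa1 0.79) and Hsph1 fell (-0.68), with a median of -0.0078.

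None of the genes on these lists was called between MI A10i and MI DMSO. Of the other ER and heat shock lists, the smallest p belonged to Ern1 (log2 -0.29), Qsox1, a disulphide-forming oxidase (-0.33), Ufd1, a cofactor of the segregase of degradation (-0.25), Spcs3, a signal peptidase subunit (-0.54), Arfgap3 (-0.33) and Hspa1a (-0.79), with adjusted p between 0.181 and 0.307 (edgeR). Cebpb (-0.50, adjusted p = 0.0802) and Slc7a11 (-2.10, adjusted p = 0.156) followed Ppp1r15a in the PERK and ATF4 list. Each of these 8 and Ppp1r15a was lower in MI A10i on average.

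**Figure D4:**
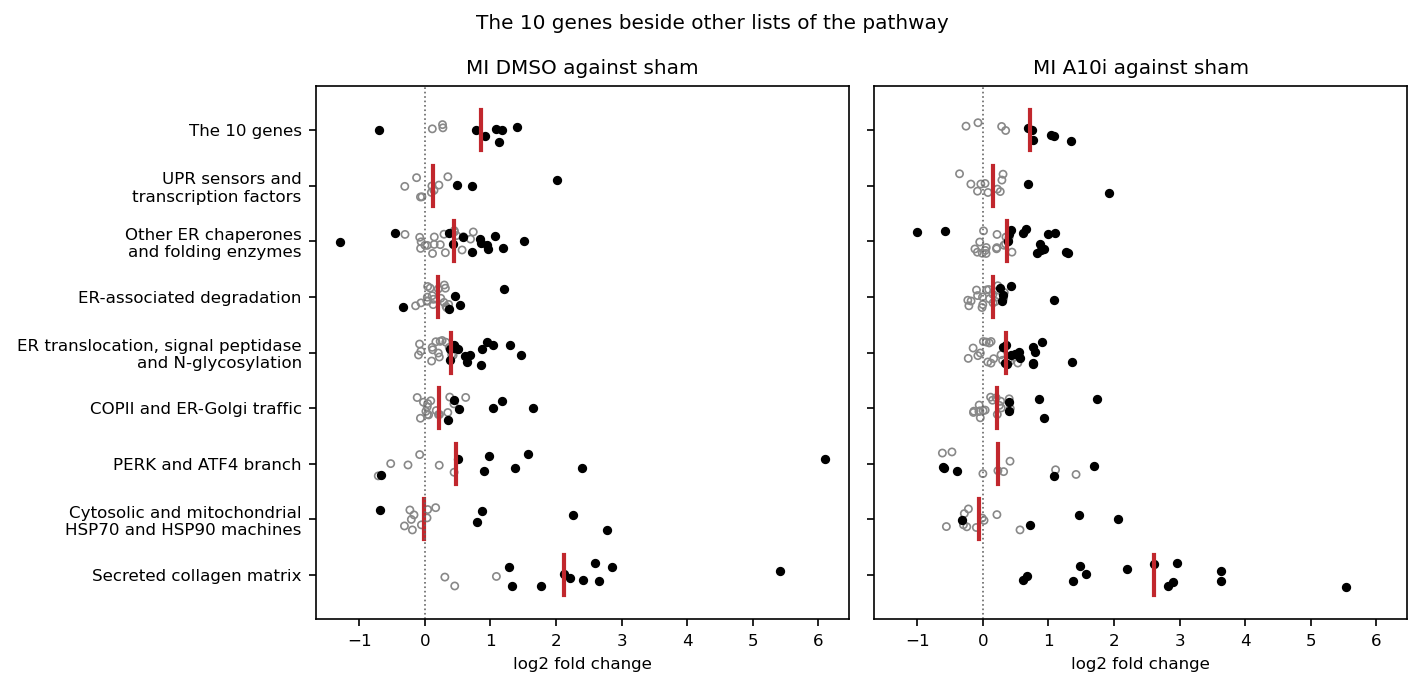
Log2 fold change against sham of every tested gene in the 10-gene list and in 8 other lists; filled points passed an adjusted p of 0.01 (edgeR), and the vertical bar is the median of the list. In MI DMSO the bar of the 10 genes stands at 0.85, right of the other lists of the ER and left of the secreted collagen matrix at 2.12.

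Levels of matrix genes and of cell type markers were set beside these genes. Secreted collagen matrix genes, a major load of the ER in fibroblasts, rose in 10 of 13 in MI DMSO (median log2 2.12) and in 13 of 13 in MI A10i (2.61). Their summed level was 1648 to 1873 CPM in sham, 3142 to 10380 CPM in MI DMSO and 6782 to 13290 CPM in MI A10i. A116 was highest in both this sum and Sdf2l1. A105, with the next highest Sdf2l1, had the lowest matrix sum of the infarcted hearts, at 3142 CPM. Of 12 macrophage and monocyte markers, 9 rose in MI DMSO and 11 in MI A10i. The 12 summed to 329 to 363 CPM in sham, 608 to 1020 in MI DMSO and 737 to 1421 in MI A10i. Lyz2 was the most abundant of them (log2 1.30 and 1.67). All 8 neutrophil markers tested rose in MI DMSO and 7 in MI A10i. Of the 10 listed, 1 was at 0 in every sham heart. The 10 summed to 3.45 to 4.87 CPM in sham, 103 to 212 in MI DMSO and 27.5 to 73.7 in MI A10i. Lcn2 was the most abundant of them. Neutrophil sums did not overlap between the infarcted groups. All 8 markers tested were lower in MI A10i at an unadjusted p under 0.05 (edgeR, median log2 -1.68), though none was called. Of all genes, 6.73% were lower at that p. Lcn2 differed by log2 -1.31 (adjusted p = 0.287, edgeR). The part of these cells in the rise of the 6 genes was not tested.

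Cardiomyocyte markers fell in 8 of 13 in MI DMSO (median log2 -0.68) and in 4 of 13 in MI A10i (-0.47). The most abundant of them, Myh6, went from 38160 ± 521 CPM in sham to 16830 ± 3042 CPM in MI DMSO and 21980 ± 3510 CPM in MI A10i, whereas Tnnt2 was not called in either comparison (log2 0.10 and -0.02). A129 and A116 had the lowest cardiomyocyte sum of their groups, at 50770 and 64240 CPM, and also the lowest Herpud1. A119, in contrast, had the highest sum of all infarcted hearts (88280 CPM) with Herpud1 at 249.7 CPM, below every sham heart. Whether fewer cardiomyocytes account for the level of Herpud1 was not tested. Fibroblast markers rose in 2 of 10 in MI DMSO and 7 of 10 in MI A10i. Their sums were 2133 to 2282 CPM in sham, 1901 to 2279 in MI DMSO and 2781 to 3057 in MI A10i. The most abundant, Gsn, averaged 1333 CPM in sham, 828 CPM in MI DMSO and 1049 CPM in MI A10i. The fold change was above 0 for 9 of the 10 in each comparison with sham. Of 10 endothelial markers, 1 rose and 2 fell in MI DMSO, and 1 rose and 1 fell in MI A10i, with sums between 1194 and 1633 CPM over all hearts. Of the 10 B and plasma cell markers (plasma cells depend on Xbp1), 5 and 6 could be tested, and Sdc1, which other cells also make, was the 1 that rose in each comparison, while Ighm fell in MI DMSO (log2 -1.09), with sums of 14.8 to 57.8 CPM over all hearts.

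**Figure D5:**
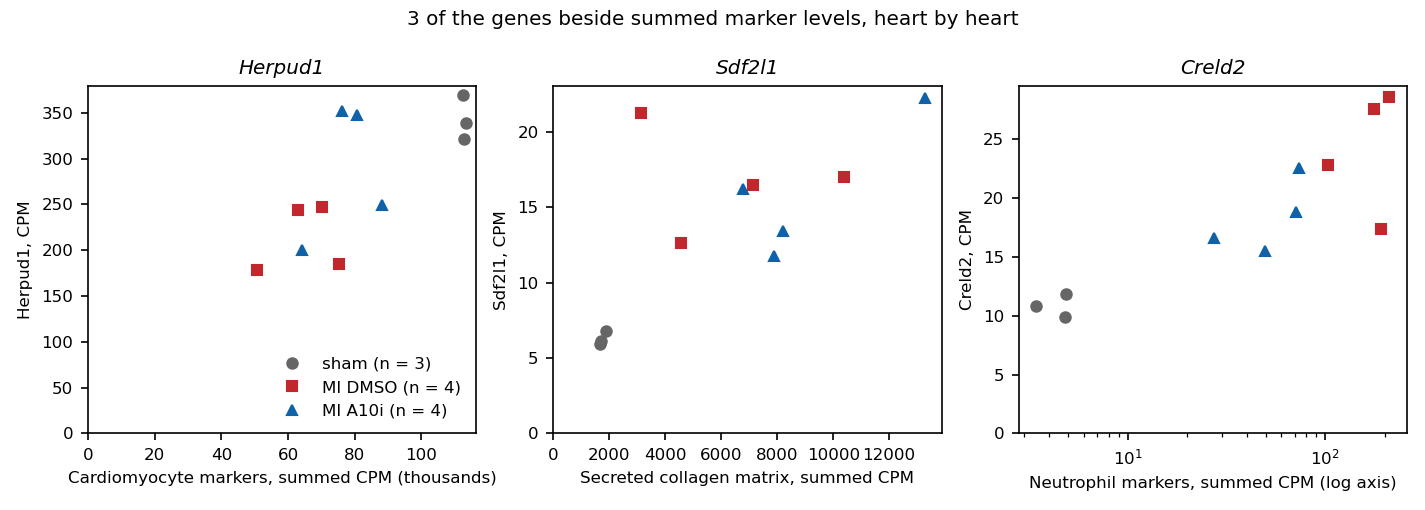
Herpud1, Sdf2l1 and Creld2 (CPM, vertical axes from 0) against the summed CPM of cardiomyocyte markers, secreted collagen matrix genes and neutrophil markers (log axis) in the same heart; circles are sham, squares MI DMSO and triangles MI A10i hearts. A119, at 88280 CPM of cardiomyocyte markers, has Herpud1 below the sham hearts. A105 has high Sdf2l1 (21.2 CPM) at 3142 CPM of the matrix genes.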

How the data were processed

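Read pairs from poly(A) RNA, in strand-specific libraries, were aligned by the authors with GSNAP to mm10 and counted per Ensembl gene with featureCounts 2.0.1. The deposited table holds raw counts per gene, whole numbers that are not normalized, together with gene positions and exon length. Of 55513 rows, 92 are spike-in controls and were left out. Symbols came from GENCODE M21.

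From the counts, edgeR 4.0.16 (filterByExpr, TMM, robust quasi-likelihood test, two-sided) was run in R 4.3.3 for each comparison with the libraries of its 2 groups, over all genes, at an adjusted p of 0.01. DESeq2 1.42.0, limma 3.58.1 (voom), other scalings, other filters, a joint fit and the omission of each library were alternatives. CPM and RPKM are TMM-scaled. Fits were tested on simulated data. The depth of the libraries and the spread between mice both bear on the precision. Promoters came from RefSeq.

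Members and lists were chosen with earlier results of these data known. The text names all 10 genes; from each pathway list the genes with the smallest p in MI DMSO against sham and in MI A10i against MI DMSO, and called genes that run against the list; from marker lists the most abundant; and the 5 nearest genes by root mean square difference. Other genes were named after their values were seen.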

Additional observations from a re-analysis of the deposited data

How the results depend on the processing

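The count of 6 genes higher in MI DMSO than in sham lay between 4 and 6 when 1 library was left out, and that of MI A10i against sham between 3 and 6. Herpud1 was the only gene called lower in MI DMSO, and the count of 1 became 0 with scaling by library size alone, with all 11 libraries in one fit and without any 1 sham heart (range 0 to 1). Without 1 sham heart the calls over all genes in MI DMSO against sham were 922 to 977 higher and 565 to 603 lower, against 2215 and 1643 with all. In MI A10i against sham they were 1062 to 1117 and 543 to 602, and 1790 and 932 in the joint fit, against 2333 and 1546. Between MI A10i and MI DMSO 2 and 9 genes, none of the 10, were called in the joint fit and 18 and 25 without the filter on low counts, against 0. The median of the 10 genes between MI A10i and MI DMSO, -0.067, ranged from -0.19 to 0.061 over the omissions and was positive without A105 (0.061) and without A119 (0.027); the cause was not tested. Over the omissions in that comparison, the log2 fold change spanned -0.13 to 0.25 for Hspa5, -0.053 to 0.15 for Hsp90b1, -0.33 to -0.097 for Xbp1, -0.32 to 0.065 for Dnajb9, -0.27 to 0.058 for Sdf2l1, -0.25 to 0.084 for Manf, -0.30 to 0.052 for Pdia4 and -0.19 to 0.082 for Pdia6. Dnajb9 against sham spanned -0.16 to 0.24 over the omissions in MI DMSO, and in MI A10i it was 0.11 with library size alone. That scaling, which moved the median of all genes by 0.208 in MI DMSO and 0.181 in MI A10i, also gave 0.46 for Hspa5, 0.48 for Hsp90b1 and 0.30 for Dnajb9 in MI DMSO, and 0.48 for Hspa5, 0.54 for Hsp90b1 and -0.076 for Herpud1 in MI A10i, with no call gained. Hspa5 in MI DMSO against sham spanned 0.022 to 0.42 over the omissions. Without the filter on low counts, Manf in MI DMSO (adjusted p = 0.0183, edgeR) and Pdia4 in MI A10i (0.0448) missed the threshold. No paired analysis was possible because the groups share no replicate numbers. Replicates are separate mice, 3 or 4 a group.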
